A study of Homo sapiens with 9 samples.

Results

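The TRIM43, TRIM48, TRIM49, TRIM51 and TRIM64 genes are multicopy human members of the tripartite motif (TRIM) family. They were taken as every array transcript cluster (the probes that together read 1 transcript) with a symbol that starts with one of these names. On the deposited symbols this gave 11 clusters. After older symbols had been brought up to date through their Entrez identifiers (SPRYD5 is now TRIM51, and LOC120824 is TRIM51G), it gave 16 of the 25679 clusters with values. Of these, 3 pairs of clusters held identical values on all arrays, so the 16 clusters gave 13 distinct readings. The genes were proposed with results of these same arrays known, and are treated here as chosen by their signal after MBD-VP16 relative to vector. The values that involve MBD-VP16 are therefore a description without a test. Only the comparison of Aire with vector was tested for them, on the assumption that it had no part in the choice.

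HEK 293 cells, a line derived from human embryonic kidney, had been transiently transfected with a PCMV vector alone, Aire or MBD-VP16, and RNA was taken 72 h later. The 3 groups had 3 biological replicates apiece with 1 one-colour array per replicate, 9 arrays in all, and nothing else about the cells was labelled as differing. AIRE is the autoimmune regulator, which drives many tissue-restricted genes in the thymus. MBD commonly stands for a methyl-CpG-binding domain, and VP16 is a viral transcriptional activator. The labels spell out neither construct, its species of origin nor the share of cells that took it up, so a large rise in a few cells and a small rise in many cannot be told apart. The labels call the replicates biological and do not say whether they were separate cultures or transfections, so the p-values cover only the spread between these arrays, and the number of arrays limits the precision. All levels below are log2 expression values made by the authors with RMA, which compresses the differences of weak signals.

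As a check of the labels, MBD1, which has a methyl-CpG-binding domain, read 10.12, 9.91 and 9.86 on the MBD-VP16 arrays and 8.49, 7.55 and 8.52 on the vector arrays, a difference of 1.78 ± 0.25 (SE of the fit; limma adjusted p = 0.00295). AIRE read 6.66, 6.57 and 6.76 after Aire and 6.32, 6.52 and 6.46 after vector, a difference of 0.23 ± 0.09 (limma adjusted p = 0.213, not past the threshold of 0.05). Array medians lay between 6.11 and 6.23. Of 8 markers listed for HEK293 cells, 5 lay above the median of every array, and EYA1, LHX1 and PAX2 did not. Of 7 measured markers of other cell types, only COL1A1 did. Vector replicate 1 had the largest spread around its group mean, with an SD of residuals of 0.191, where the other arrays had 0.137 to 0.161.

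TRIM proteins share a RING finger, B-box and coiled-coil arrangement, and many act as E3 ubiquitin ligases. The genes described here also encode a C-terminal SPRY-type domain and lie in recently duplicated primate gene clusters. Several of them, TRIM43, TRIM48 and TRIM49 among them, are transcribed in the cleavage-stage human embryo and are known targets of DUX4, a double homeobox transcription factor of that stage. They are silent or nearly so in most adult somatic tissues.

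The near identity of the copies limits what the array can name. TRIM43 and TRIM43B were read together by 3 clusters on chromosome 2, at 96142765 to 96150489 (minus strand, cluster 1), 96257762 to 96265471 (plus strand, cluster 2) and 97691712 to 97696282 (minus strand, cluster 3), in the authors' own positions, for which no source used here names a genome build. The other 13 clusters lie on chromosome 11, between 48967246 and 55659286 for 5 of them and between 89530823 and 89775193 for the rest. Only 3 readings had the array annotation's cross-hybridisation code 1, which marks probes unique to a transcript. These were TRIM48 (chromosome 11, 55029658 to 55038595), TRIM51 (55653456 to 55659286) and TRIM51G (48997050 to 49003247). The other 10 had code 3, which marks mixed probes that can also bind other transcripts, so each is a joint reading of the genes annotated to it. The names used here are shortened. LOC653111 is also annotated to TRIM49/TRIM49C and to TRIM49 clusters 1 and 2, and LOC652859 to TRIM51/TRIM51BP/TRIM51HP/TRIM51EP. Of the 78 pairs of readings, 17 shared transcript accessions in the annotation, and the TRIM64/TRIM64B/TRIM64C reading alone shared none with the others. The readings are thus not independent of one another.

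RefSeq promoter windows (GRCh38.p14, 250 bases before to 50 after an annotated start) were held for 11 genes whose symbols start with one of the TRIM names above. There were 12 windows in all, since TRIM49D1 has 2 starts. The genes were TRIM48, TRIM49, TRIM49B, TRIM49C, TRIM49D1, TRIM49D2, TRIM51, TRIM51G, TRIM64, TRIM64B and TRIM64C. No array reading is annotated to TRIM49B or TRIM49D1, and no window was held for TRIM43 or TRIM43B. The windows and the readings therefore do not cover the same set of genes. The 250 bases upstream of 5 starts are printed 5′ to 3′ on the gene's strand to show what the copies do and do not share. The positions are chr11:55261905-55262154 (TRIM48, plus strand), chr11:55883047-55883296 (TRIM51, plus), chr11:89923814-89924063 (TRIM49D2, plus), chr11:89965787-89966036 (TRIM64, plus) and chr11:89808576-89808825 (TRIM49, minus). Capitals mark matches to the DUX4 motif, by its published consensus, and to the string CCTAATCA.
TRIM48: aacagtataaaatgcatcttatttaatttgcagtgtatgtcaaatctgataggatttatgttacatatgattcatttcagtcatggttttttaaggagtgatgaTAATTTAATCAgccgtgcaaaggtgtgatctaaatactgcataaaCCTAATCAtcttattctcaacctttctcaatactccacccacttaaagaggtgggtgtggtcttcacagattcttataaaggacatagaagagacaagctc
TRIM51: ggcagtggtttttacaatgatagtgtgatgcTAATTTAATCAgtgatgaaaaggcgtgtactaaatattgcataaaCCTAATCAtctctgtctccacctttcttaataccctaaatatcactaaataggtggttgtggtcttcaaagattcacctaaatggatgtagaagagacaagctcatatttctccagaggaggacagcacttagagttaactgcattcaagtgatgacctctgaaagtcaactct
TRIM49D2: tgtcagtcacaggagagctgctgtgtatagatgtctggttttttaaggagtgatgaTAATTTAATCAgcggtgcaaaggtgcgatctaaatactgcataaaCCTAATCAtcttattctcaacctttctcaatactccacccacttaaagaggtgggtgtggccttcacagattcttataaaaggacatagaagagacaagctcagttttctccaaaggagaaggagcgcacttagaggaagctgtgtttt
TRIM64: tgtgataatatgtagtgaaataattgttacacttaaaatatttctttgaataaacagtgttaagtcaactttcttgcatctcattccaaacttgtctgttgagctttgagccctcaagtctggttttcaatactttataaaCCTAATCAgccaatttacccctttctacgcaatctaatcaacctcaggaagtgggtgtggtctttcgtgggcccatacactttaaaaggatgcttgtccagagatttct
TRIM49: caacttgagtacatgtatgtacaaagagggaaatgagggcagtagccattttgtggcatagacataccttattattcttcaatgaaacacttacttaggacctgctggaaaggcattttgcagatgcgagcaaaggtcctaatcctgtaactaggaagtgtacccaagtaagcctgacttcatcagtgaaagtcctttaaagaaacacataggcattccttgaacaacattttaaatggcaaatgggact

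Both strands were searched for the string CCTAATCA and for the DUX4 motif, which are different stretches in these windows. CCTAATCA stood in 8 of the 12 windows and in 141 of all 35116 human promoter windows (0.402%). The DUX4 motif stood in 6 of the 12 and in 55 of all windows (0.157%). In those 6 windows, of TRIM48, TRIM49B, TRIM49D1 (start 1), TRIM49D2, TRIM51 and TRIM51G, the first bases of the 2 matches were 45 bases apart, although their distance from the annotated start varied. CCTAATCA began at position -101 from the start in TRIM48 and at -174 in TRIM51. TRIM64 and TRIM64B held CCTAATCA without a full DUX4 motif, and the windows of TRIM49, TRIM49C, TRIM64C and the second start of TRIM49D1 held neither. Among 77 windows of other TRIM genes, CCTAATCA stood in that of TRIM3 and the DUX4 motif in none. The windows are related copies and not independent: TRIM48 and TRIM49D1 start 1 were 91.3% identical over aligned columns, TRIM49 and TRIM49C 99.7%, but TRIM48 and TRIM49 47.6%. The strings were chosen with the windows in view, and a match is no evidence that a factor binds there.

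These promoters were poor in CpG, the dinucleotide that carries DNA methylation. Each 300-base window held 0 to 5 CpG (median 1.5), against a median of 14 over all promoter windows, of which 33.7% held 5 or fewer. Their GC content was 35.7% to 50.3%, against a median of 58.7%. DNA methylation was not measured here.

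**Figure D1:**
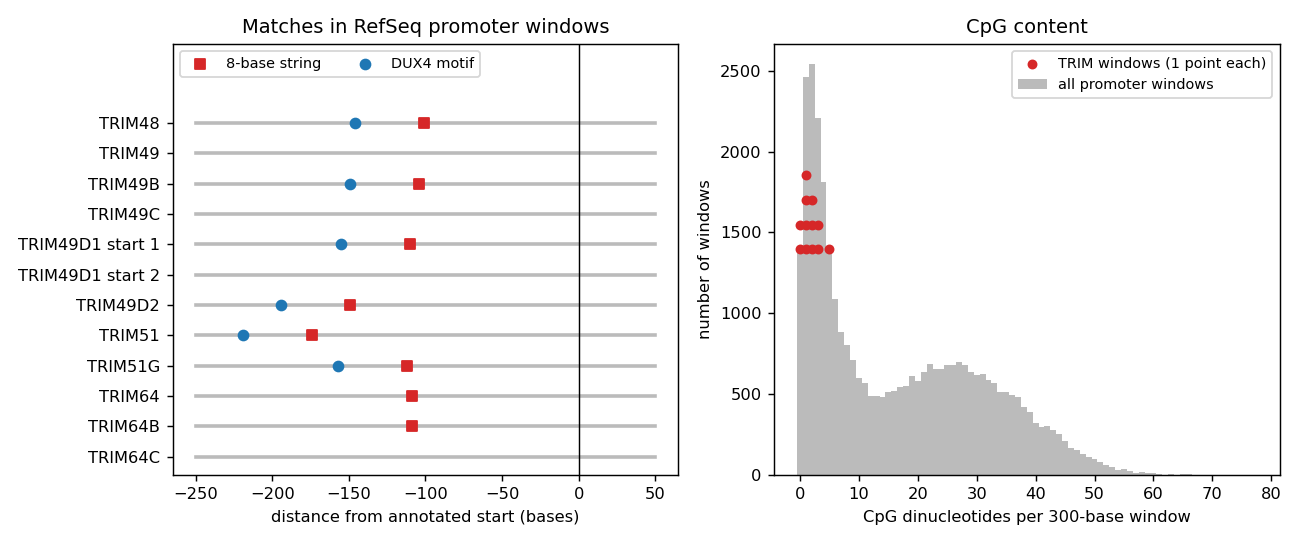
Left, positions of the CCTAATCA string (squares) and the DUX4 motif (circles) in 12 RefSeq promoter windows, in bases from the annotated start (vertical line); grey lines are the windows. Right, CpG dinucleotides per window for all 35116 human promoter windows (grey histogram) and for the 12 TRIM windows (red points, 1 per window, stacked for visibility so that their height has no scale); the TRIM windows hold 0 to 5.

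After MBD-VP16, all 13 readings of these genes were higher than after vector, from close to 2-fold to over 80-fold. Most are joint readings, so a rise of each annotated gene is not shown. On every one of the 13 readings the 3 MBD-VP16 arrays lay above the 3 vector arrays, as they did on 13.2% of all clusters, and 12 of 13 readings were at least 2-fold higher, as were 1.02% of all clusters. For scale, limma called 9.89% of all clusters in either direction in this comparison. Since the genes are treated as chosen for this rise, nothing is read from these counts. The median difference of the readings was 4.14 log2 units, and that of all clusters 0.0033. Without vector replicate 1 the median of the readings was 4.36.

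TRIM64 showed the largest difference. It encodes a RING-type TRIM protein, and its reading, which covers TRIM64, TRIM64B, TRIM64C and TRIM77, was 2.81, 2.88 and 3.08 on the vector arrays, 3.70, 2.99 and 3.55 after Aire and 9.32, 9.17 and 9.33 after MBD-VP16. Vector and Aire arrays overlapped in range (the lowest Aire array lay below the highest vector array), and the MBD-VP16 arrays lay far above both. The difference between MBD-VP16 and vector was 6.35 ± 0.17 (SE), 81.6-fold, which ranked 2 among all 25679 clusters. The vector and Aire signals were low against array medians of 6.11 to 6.23, and no detection call was used here, so whether they exceed background is not known and the fold and rank are not exact sizes.

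TRIM43, whose product has been described in human cells as a herpesvirus restriction factor that acts on the centrosomal protein pericentrin, was read with its near copy TRIM43B by 3 clusters. Cluster 1 read 5.19, 4.77 and 4.29 after vector, 6.19, 5.67 and 5.67 after Aire and 10.20, 10.08 and 10.04 after MBD-VP16. Cluster 2 read 5.16, 4.53 and 4.27, then 6.20, 5.71 and 5.70, then 10.26, 10.14 and 10.11 in the same order of groups. On both, the groups formed 3 steps without overlap, with Aire between vector and MBD-VP16. Cluster 3 read 5.23, 4.49 and 4.10 after vector, 6.20, 5.61 and 5.55 after Aire, and 10.21, 10.08 and 10.04 after MBD-VP16. Its groups formed the same 3 steps without overlap. The MBD-VP16 arrays exceeded vector by 5.36 ± 0.22, 5.52 ± 0.22 and 5.50 ± 0.27 on clusters 1, 2 and 3, or 41.0-, 45.8- and 45.4-fold. The 3 clusters carry the same 2 symbols, so their likeness is not repeated evidence.

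TRIM48, reported in human cells to promote the degradation of the methyltransferase PRMT1 and so to favour ASK1 signalling, had a unique and a joint reading. The unique one was 3.44, 3.16 and 3.27 after vector, 3.06, 3.53 and 2.87 after Aire and 5.68, 5.61 and 5.99 after MBD-VP16. The vector and Aire arrays overlapped, and all 3 MBD-VP16 arrays lay above both. MBD-VP16 exceeded vector there by 2.47 ± 0.17, 5.54-fold. The joint reading of TRIM48 and TRIM49D2 (also annotated GRM5P1 and TRIM53CP, and found on 2 neighbouring clusters of opposite strand, 89644575 to 89653596 and 89657212 to 89666233) was 5.15, 4.99 and 4.15 after vector, 5.95, 5.73 and 6.11 after Aire and 10.18, 10.18 and 10.30 after MBD-VP16. Its 3 groups did not overlap, and MBD-VP16 exceeded vector by 5.46 ± 0.23, 43.9-fold. The TRIM48 and TRIM49D2 promoters both hold the pair of strings shown above, and any link of the strings to these rises was not tested.

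TRIM49, another RING-type member, was read by 3 clusters, none of them unique. The joint TRIM49/TRIM49C cluster (49050504 to 49090859) read 5.46, 4.84 and 4.91 after vector, 5.85, 5.69 and 5.64 after Aire and 9.88, 9.74 and 9.81 after MBD-VP16. TRIM49 cluster 1 (89530823 to 89541743, minus strand) read 5.31, 4.52 and 4.86, then 5.41, 5.13 and 5.28, then 8.92, 8.86 and 9.0. TRIM49 cluster 2 (89764274 to 89775193, plus strand) read 5.51, 4.83 and 4.85, then 5.50, 5.22 and 5.53, then 9.23, 9.09 and 9.29. Vector and Aire arrays overlapped on clusters 1 and 2 and did not on the TRIM49/TRIM49C cluster, while MBD-VP16 was apart from both groups on all 3. The differences between MBD-VP16 and vector were 4.74 ± 0.15, 4.03 ± 0.17 and 4.14 ± 0.18 in the same order, or 26.7-, 16.3- and 17.6-fold. The promoter windows held for TRIM49 and TRIM49C had neither string. The readings are joint, so the rises cannot be placed at these starts, and any link to the strings was not tested.

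TRIM51, deposited under its older symbol SPRYD5, gave a unique reading with the widest scatter after MBD-VP16. It was 4.94, 5.50 and 4.88 after vector, 5.21, 4.93 and 4.70 after Aire and 6.63, 5.99 and 7.08 after MBD-VP16. The lowest MBD-VP16 array still lay above every other array, and the difference from vector was 1.46 ± 0.27, 2.75-fold. The reading shared by TRIM51 and the pseudogene TRIM51EP (48967246 to 48971796) was 3.76, 3.14 and 3.08 after vector, 4.54, 4.23 and 4.13 after Aire and 7.88, 7.24 and 7.21 after MBD-VP16, so that MBD-VP16 exceeded vector by 4.12 ± 0.23, 17.3-fold. Another reading, annotated also to TRIM51BP and TRIM51HP and found on 2 clusters (89588121 to 89596235 and 89714611 to 89722727), was 4.03, 3.83 and 4.15 after vector, 4.22, 4.40 and 4.41 after Aire and 6.69, 6.52 and 6.71 after MBD-VP16. Here the difference was 2.64 ± 0.10, 6.22-fold. TRIM51G showed the smallest of all: 3.28, 3.09 and 3.44 after vector, 3.67, 3.34 and 3.23 after Aire and 3.99, 4.36 and 4.42 after MBD-VP16, a difference of 0.99 ± 0.15, 1.98-fold. Its MBD-VP16 arrays did not overlap the other groups.

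**Figure D2:**
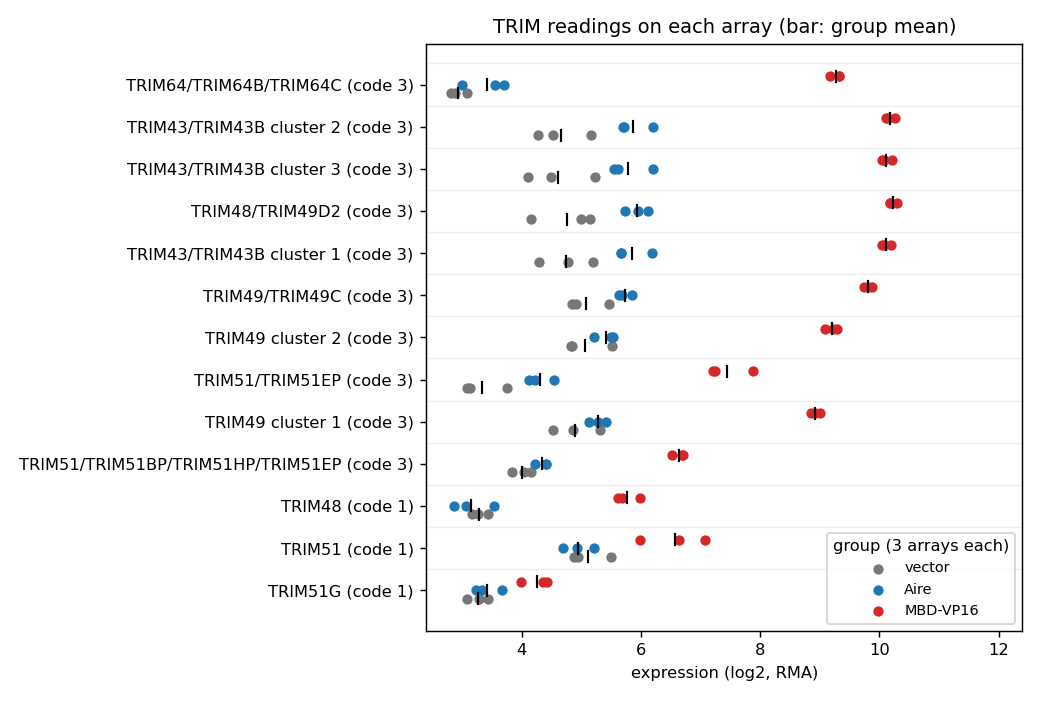
Log2 expression (RMA) of the 13 readings on each of the 9 arrays, with vector in grey, Aire in blue and MBD-VP16 in red; points are arrays and black bars group means. Code 1 marks readings from unique probes and code 3 readings from mixed probes; on every reading the 3 MBD-VP16 arrays lie above the other 6.

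The size of the difference went with how specific the probes are. The 3 readings from unique probes differed by 0.99 to 2.47 log2 units between MBD-VP16 and vector (median 1.46), and the 10 from mixed probes by 2.64 to 6.35 (median 5.05), with no overlap between these ranges. The 3 unique readings are of other genes or copies than most of the joint ones, so probe specificity and gene cannot be told apart. For TRIM48 the difference was 2.47 on its unique cluster and 5.46 on the cluster shared with TRIM49D2, which have 7 annotated accessions in common. For TRIM51 it was 1.46 on the unique cluster, 4.12 on TRIM51/TRIM51EP and 2.64 on TRIM51/TRIM51BP/TRIM51HP/TRIM51EP, each of which has 8 accessions in common with the unique one. What part cross-hybridisation has in these sizes was not tested.

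**Figure D3:**
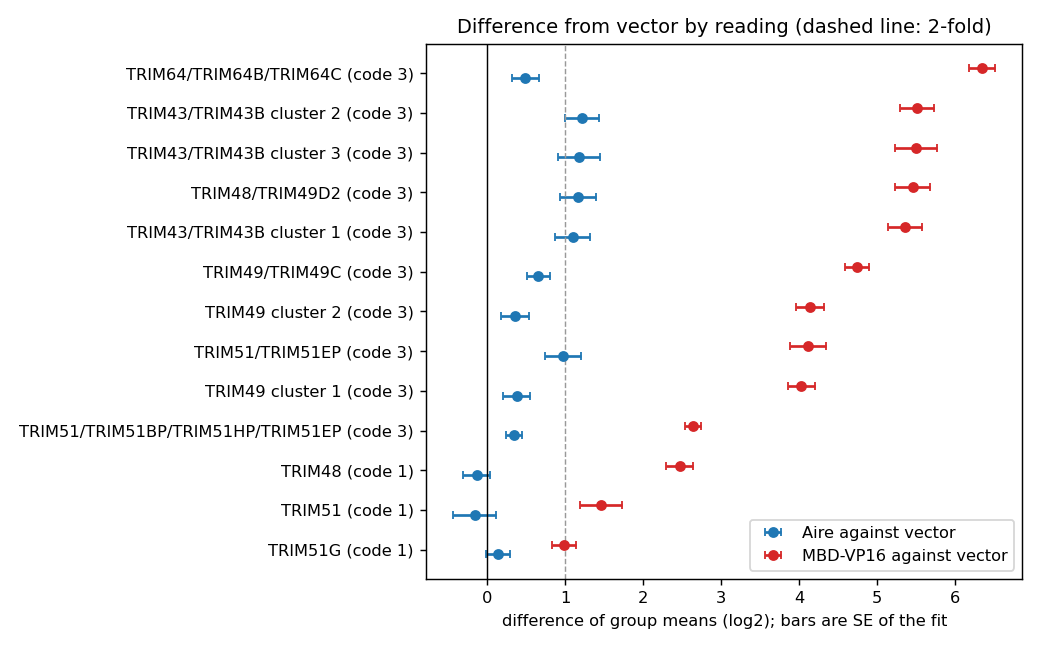
Differences of group means from vector (log2) for the 13 readings, Aire in blue and MBD-VP16 in red; bars are the standard error of the fit over 9 arrays, and the dashed line marks 2-fold. The MBD-VP16 differences run from 0.99 (TRIM51G) to 6.35 (TRIM64/TRIM64B/TRIM64C), and the Aire differences from -0.16 to 1.22.

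Set against Aire, which was also transfected, the MBD-VP16 arrays were again higher throughout. All 13 readings had their 3 MBD-VP16 arrays above the 3 Aire arrays (8.41% of all clusters did), and 12 were at least 2-fold higher (0.81% of all clusters), where limma called 1.88% of all clusters in either direction. The median difference was 3.79. It was 5.86 for TRIM64/TRIM64B/TRIM64C (58.1-fold), 4.26, 4.30 and 4.32 for the TRIM43/TRIM43B clusters, 4.29 for TRIM48/TRIM49D2 and 2.61 for TRIM48 alone. TRIM51G again had the smallest, 0.84. This comparison uses the same MBD-VP16 arrays and carries no test either.

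Whether these genes also differed after Aire was tested, in a comparison that leaves out the MBD-VP16 group means. The TRIM43/TRIM43B, TRIM48/TRIM49D2, TRIM49/TRIM49C and TRIM51/TRIM51EP readings were called higher after Aire, by 0.66 to 1.22 log2 units. None of these calls held when any Aire array was left out, or in a fit without the MBD-VP16 arrays. In all, 6 of the 13 readings passed upward and 0 downward, against 1.58% of all clusters called higher and 2.82% called lower. An unadjusted limma p under 0.05 was found for 8 readings. The share of all clusters at that threshold was not counted, so nothing is read from it. Of the 6 that passed, 3 were the TRIM43/TRIM43B clusters, which share accessions and are not separate evidence. On 7 readings the 3 Aire arrays lay above the 3 vector arrays (12.3% of all clusters), and 4 were at least 2-fold higher (0.113%). The median difference of the 13 readings was 0.49, and that of all clusters 0.03. Both comparisons with vector share the same 3 vector arrays, so the test is not independent of the values taken to have chosen the genes.

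On the TRIM43/TRIM43B clusters the rise was 1.09 ± 0.22 (limma adjusted p = 0.0290), 1.22 ± 0.22 (0.0205) and 1.18 ± 0.27 (0.0454) for clusters 1, 2 and 3. The TRIM48/TRIM49D2 reading rose by 1.17 ± 0.23 (limma adjusted p = 0.0273), TRIM49/TRIM49C by 0.66 ± 0.15 (0.0463) and TRIM51/TRIM51EP by 0.97 ± 0.23 (0.0496). Each of these had its 3 Aire arrays above its 3 vector arrays, and each remained far below its MBD-VP16 level. The other 7 did not pass, among them TRIM64/TRIM64B/TRIM64C at 0.49 ± 0.17 (limma adjusted p = 0.142) and TRIM51/TRIM51BP/TRIM51HP/TRIM51EP at 0.34 ± 0.10 (0.0994). TRIM49 clusters 1 and 2 differed by 0.38 ± 0.17 (limma adjusted p = 0.267) and 0.35 ± 0.18 (0.305). None of the 3 unique readings passed, with TRIM48 at -0.14 ± 0.17 (limma adjusted p = 0.705), TRIM51 at -0.16 ± 0.27 (0.791) and TRIM51G at 0.14 ± 0.15 (0.648). All 6 calls were thus on mixed probes.

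These calls sat close to the threshold. Leaving out any 1 Aire array, or vector replicate 2, ended every one of the 6, and the number of readings called was 0 without Aire replicate 1, Aire replicate 3 or vector replicate 2 and 1 without Aire replicate 2. It was 4, 2 and 2 without MBD-VP16 replicates 1, 2 and 3, 3 without vector replicate 3 and 7 without vector replicate 1. A fit on the 6 vector and Aire arrays alone called 0, with differences of the same size. Calls over all 25679 clusters also fell, from 1131 with all arrays to 309 in that fit. They were 322, 287 and 287 without Aire replicates 1, 2 and 3, and 627, 497 and 937 without vector replicates 1, 2 and 3. Without MBD-VP16 replicates 1, 2 and 3 they were 843, 744 and 700. Vector replicate 1 was the highest vector array on 9 of the 13 readings (69.2%), against 34.5% of all clusters, and without it the TRIM43/TRIM43B differences were 1.31, 1.47 and 1.49 for clusters 1, 2 and 3. Without it TRIM49 cluster 2 passed as well (0.58, limma adjusted p = 0.0410), and without Aire replicate 2 TRIM64/TRIM64B/TRIM64C did (0.70, limma adjusted p = 0.0338).

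**Figure D4:**
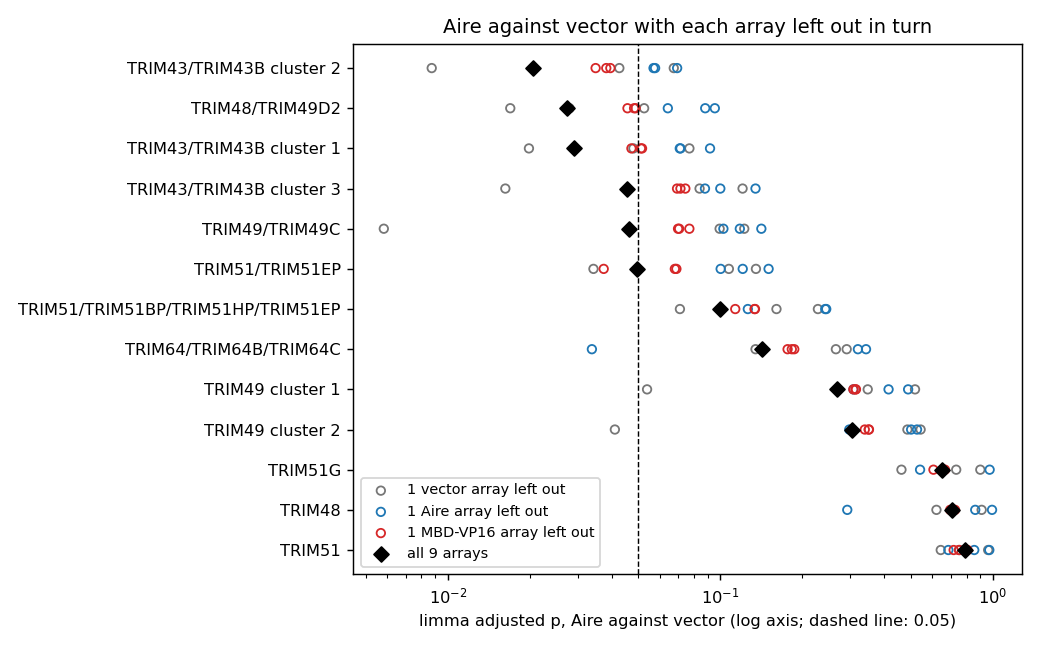
Adjusted p (limma, log axis) of the difference between Aire and vector for the 13 readings, with all 9 arrays (black diamonds) and with each array left out in turn (open circles, coloured by the group of the array left out); the dashed line is 0.05. The diamonds of 6 readings lie left of the line, and all their blue circles lie right of it.

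The rest of the TRIM family was set beside these copies. Other TRIM genes were read by 86 clusters with 78 distinct readings. After MBD-VP16, 1 reading rose and 6 fell relative to vector, against 4.75% and 5.14% of all clusters, and the median difference was -0.07. TRIM22, an interferon-induced antiviral member read together with the olfactory receptor gene OR56B1, rose by 0.97 ± 0.15 (limma adjusted p = 0.00501). TRIM23, which also carries an ARF-type GTPase domain, fell by 0.41 ± 0.08 (0.0122 by the same test), and the TRIM39/TRIM39-RPP21 reading fell by 0.57 ± 0.11 (0.0141). TRIM52 fell on both of its clusters, by 0.67 ± 0.16 (limma adjusted p = 0.0308) and 0.44 ± 0.11 (0.0377). None of the 78 was at least 2-fold higher after MBD-VP16, where 1.02% of all clusters were, so 0 of 78 is near that share. After Aire, TRIM22/OR56B1 rose by 0.86 ± 0.15 (limma adjusted p = 0.0193), while TRIM23 fell by 0.35 ± 0.08 (0.0402) and the joint NSUN5P1/NSUN5P2/NSUN5/TRIM73 reading by 0.40 ± 0.08 (0.0318). The TRIM22/OR56B1 and TRIM23 calls against vector after MBD-VP16 stood with each array left out, and that of TRIM39/TRIM39-RPP21 was lost without MBD-VP16 replicate 2. The TRIM52 calls were lost in 4 and 6 of the 9 runs, and the Aire calls of TRIM22/OR56B1, TRIM23 and the NSUN5P1 reading in 4, 8 and 7. Between MBD-VP16 and Aire limma called 0 of 78, against 1.8% of all clusters called higher and 0.074% called lower. An unadjusted limma p under 0.05 was found for 13 of the 78, and the share of all clusters at that threshold was not counted.

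Genes that lie beside these TRIM copies were examined next. Within 500 kb of a member cluster lay 42 clusters with 1 symbol, 39 distinct readings, of which 4 rose and 1 fell after MBD-VP16 relative to vector, against 4.75% and 5.14% of all clusters. Both UBTFL1 readings were among the 4. Both had cross-hybridisation code 3, the mixed-probe code, and 1 of them stood on chromosomes 2 and 11 alike. Their signal therefore cannot be placed beside a given TRIM copy. UBTFL1, an HMG-box gene whose mouse counterpart is known from the preimplantation embryo, stood on 4 clusters with identical values and on a further one. The repeated reading, 19.9 kb from TRIM43/TRIM43B clusters and 43.7 to 43.9 kb from TRIM49 clusters, was 2.45, 2.97 and 2.66 after vector, 2.69, 2.56 and 2.83 after Aire and 5.13, 4.95 and 5.05 after MBD-VP16. It rose by 2.35 ± 0.13 (limma adjusted p = 7.17e-06) over vector, with the MBD-VP16 arrays well apart and the other groups overlapping. The second, 12.6 kb from the TRIM49/TRIM49C cluster, rose by 2.13 ± 0.12 (limma adjusted p = 6.41e-06). MAL, which encodes a membrane raft proteolipid, rose by 1.58 ± 0.14 (limma adjusted p = 2.19e-04) at 423.0 kb from a TRIM43/TRIM43B cluster, and CNNM4, a magnesium transporter gene, by 0.55 ± 0.07 (0.0013). CHORDC1, an HSP90 co-chaperone gene at 159.0 kb from a TRIM49 cluster, fell by 0.49 ± 0.11 (limma adjusted p = 0.0297). The median of the 39 readings was 0.03. The 4 that rose were higher than after Aire too, where 1.8% of all clusters were called higher and 0.074% lower. In Aire cells 0 neighbours rose and 2 fell, against 1.58% and 2.82% of all clusters, namely CHORDC1 by 0.53 ± 0.11 (limma adjusted p = 0.0366) and the cluster annotated SLC25A33 by 0.35 ± 0.08 (0.0475). With each array left out in turn, the UBTFL1, MAL and CNNM4 calls all stood, while the CHORDC1 call was lost in 4 of 9 runs after MBD-VP16 and in 7 after Aire, and that of SLC25A33 in 8.

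Other genes of the cleavage-stage embryo or linked to DUX4 were also higher after MBD-VP16. The list was written with earlier results of these arrays known, so its direction is not independent evidence. It gave 31 clusters with 29 distinct readings besides the TRIM copies, of which 27 rose and 0 fell relative to vector (4.75% and 5.14% of all clusters did). At least 2-fold higher were 26 of them (1.02% of all clusters), and the median was 2.33. ZNF296 and RFPL2 did not pass, at 0.42 each. The reading of SLC34A2, a sodium-phosphate cotransporter gene annotated together with ROS1, went from 4.70 ± 0.27 (SD, n = 3) after vector to 9.75 ± 0.02 after MBD-VP16, a difference of 5.05 ± 0.13 (SE; limma adjusted p = 6.47e-08). RFPL4B, of the RET finger protein-like family, rose by 4.74 ± 0.11 (limma adjusted p = 4.94e-08), and the joint MBD3L2 reading, of MBD3-like genes, by 4.76 ± 0.14 (9.91e-08). A pair of joint PRAMEF readings rose by 4.24 ± 0.10 (limma adjusted p = 4.19e-08) and 4.92 ± 0.15 (9.91e-08), and the histone variant reading H3Y1/H3Y2 by 3.14 ± 0.10 (1.87e-07). Relative to Aire, 27 of the 29 rose and 0 fell (1.8% and 0.074% of all clusters).

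After Aire, 1 reading of this list rose and 2 fell, against 1.58% and 2.82% of all clusters. H3Y1/H3Y2 rose by 0.44 ± 0.10 (limma adjusted p = 0.0475), a call lost with any 1 of the 9 arrays left out. Both RFPL4A readings fell, with differences of -2.62 ± 0.09 (limma adjusted p = 3.24e-06) and -2.45 ± 0.15 (1.62e-04), and the median of the 29 was 0.09. DUX4 itself was read by 12 clusters with 7 distinct readings, which lay between 7.07 and 7.56 after vector, 7.0 and 7.55 after Aire and 6.97 and 7.58 after MBD-VP16. Its differences between MBD-VP16 and vector were -0.13 to 0.08, with a lowest limma adjusted p of 0.366. DUX4 lies in repeated copies across the genome, so these readings do not separate one copy from another.

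**Figure D5:**
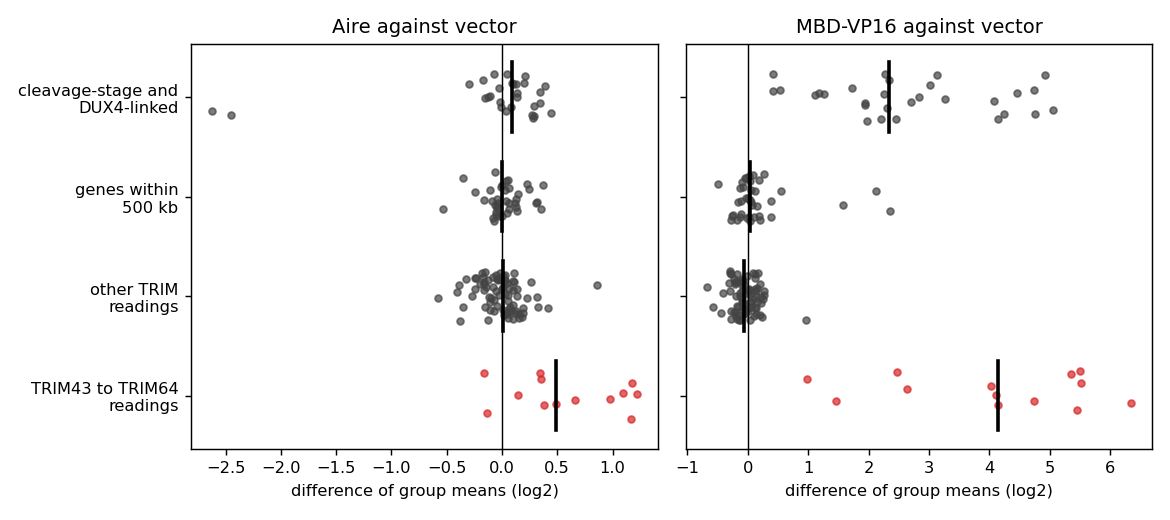
Differences of group means from vector (log2) for Aire (left) and MBD-VP16 (right), 1 point per distinct reading, with black bars at the medians, for 13 TRIM43 to TRIM64 readings (red), 78 readings of other TRIM genes, 39 readings within 500 kb and 29 cleavage-stage and DUX4-linked readings. After MBD-VP16 the medians are 4.14, -0.07, 0.03 and 2.33 in that order; vertical scatter has no meaning, and the horizontal scales of the panels differ.

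Profiles most like that of TRIM48 were sought among 18136 clusters with 1 symbol, by the root mean square difference over the 9 arrays after each profile was set relative to its vector mean. The unique TRIM48 reading was used because mixed probes do not name a gene. The clusters compared with it were not limited to unique probes, and both UBTFL1 readings named below had code 3. ZNF280A, a zinc finger gene that is itself on the cleavage-stage list, was closest at 0.234 (Pearson r 0.986), followed by NEFM, a neurofilament gene, at 0.275 (0.974), BIK, a pro-apoptotic BH3-only gene, at 0.319 (0.978), and the UBTFL1 readings at 0.324 (0.965) and 0.342 (0.972). ZNF280A read 3.46, 3.70 and 3.75 after vector, 3.46, 3.79 and 3.64 after Aire and 5.80, 5.70 and 6.18 after MBD-VP16. Like TRIM48, it had vector and Aire arrays that overlapped and MBD-VP16 arrays above both. These 5 were picked for their likeness, over arrays that they share with TRIM48, and the values describe only that.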

How the data were processed

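RNA of 9 samples of transfected HEK293 cells was measured on 1 array each. The deposited log2 expression values were made by the authors with RMA, per the submitters' processing notes. No source used here names its version or the probe annotation. Another deposited table gave symbols, positions, cross-hybridisation codes and the authors' log2 fold changes, and its 9 per-array columns were not used. For all 13 readings, the authors' deposited log2 fold changes and the differences of group means were at most 0.0067 apart. Of 28829 clusters, 3150 held no value. The other 25679, of which 18684 had 1 symbol, 2534 several and 4461 none, entered 1 limma 3.58.1 fit (lmFit and eBayes, no trend, R 4.3.3) with group as the only factor, because most of these TRIM copies share clusters. Tests were two-sided at an adjusted p of 0.05 (Benjamini-Hochberg over all clusters). The prior had 2.93 degrees of freedom and the median standard error was 0.104. Of 20417 Entrez identifiers, 19695 matched the GRCh38.p14 gene table used for names.

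The TRIM genes and all lists were chosen with earlier results of these data known. Named are every TRIM43, TRIM48, TRIM49, TRIM51 and TRIM64 reading; of other TRIM genes, up to 4 per direction and comparison by adjusted p among those called; all called neighbours up to 6; up to 6 cleavage-stage or DUX4-linked readings per comparison by adjusted p; the 5 profiles most like TRIM48; and AIRE and MBD1. ZNF296, RFPL2 and DUX4 were named after their values were seen. In simulated data the same fit recovered 54%, 40% and 56% of planted differences of 0.5 log2 units between Aire and vector, between MBD-VP16 and vector and between MBD-VP16 and Aire, and 88%, 84% and 82% of differences of 1, among 25679 clusters.

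Alternatives were repeated quantile normalization, centring each array on its median, an intensity trend, a filter on dim clusters, clusters with 1 symbol only, the 6 arrays of a comparison alone, a replicate block, each array left out, the authors' deposited fold changes and, chosen after seeing the data, deposited symbols only and unique probes only.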

Additional observations from a re-analysis of the deposited data

How the results depend on the processing

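Every one of the 13 TRIM readings kept a positive difference between MBD-VP16 and vector, and between MBD-VP16 and Aire, under each alternative in which that reading was computed. The number of Aire calls held under some alternatives and fell under others. With the deposited symbols only, the median difference became 5.36 for MBD-VP16 against vector and 4.26 for MBD-VP16 against Aire. On unique probes only it was 1.46 and 1.62, and for Aire against vector it reversed to -0.14. With each array left out, the medians ran from 4.02 to 4.36, from 3.69 to 3.84 and, for Aire against vector, from 0.40 to 0.67. The 6 TRIM calls for Aire against vector became 3 after centring and after repeated quantile normalization (TRIM43/TRIM43B clusters 1 and 2 and TRIM48/TRIM49D2), 0 with 6 arrays, 0 among the 3 readings with 1 symbol, and 0 to 7 with an array left out. The count stayed at 6 with a trend and without dim clusters, where 11 readings remained. Over all clusters, the 1131 calls became 1197 after centring, 1203 after repeated quantile normalization, 309 with 6 arrays and 2308 with a trend. They were 1305 of 18684 clusters with 1 symbol, 1754 of 19257 without dim clusters, and 287 to 937 with an array left out. The unique readings of TRIM48 and TRIM51 turned to 0.005 without Aire replicate 3 and to 0.037 without vector replicate 2, the upper ends of ranges that began at -0.33 for TRIM48 and -0.29 for TRIM51. Except where fewer samples or clusters entered by construction, the cause was not tested.

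Among other TRIM genes, the 3 Aire calls became 1 with 1 symbol, 5 without dim clusters, 6 with a trend, 0 with 6 arrays, and 0 to 3 with an array left out. Their 7 calls for MBD-VP16 against vector became 11 with a trend, 12 after centring, 3 with 6 arrays and 2 to 7 with an array left out, and for MBD-VP16 against Aire the count stayed at 0. Over all clusters, the 2539 calls for MBD-VP16 against vector became 3814 with a trend, 3159 after centring and 1469 with 6 arrays. With an array left out they were 1346 to 2406. The 482 calls for MBD-VP16 against Aire became 500 of 19257 without dim clusters. The 2 Aire calls among neighbours became 1 with 6 arrays, 1 after repeated quantile normalization and 0 to 1 with an array left out, and their 4 calls for MBD-VP16 against Aire became 2 without dim clusters. Of 18 cleavage-stage and DUX4-linked readings with 1 symbol, 16 were called in MBD-VP16 against vector and 17 in MBD-VP16 against Aire when such clusters were fitted alone. Of all 18684 clusters in that fit, 2546 and 367 were called in these comparisons.

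The labels do not say whether the replicate numbers pair the arrays. Deviations of same-numbered arrays from their group means correlated at -0.069 to 0.135 over 9 pairs, and of others at -0.147 to 0.088 over 18. These ranges overlap and do not settle whether arrays were paired. With a replicate block 5 of the 6 TRIM calls for Aire against vector were made, without TRIM48/TRIM49D2. Calls among other TRIM genes fell to 1 for Aire and 3 for MBD-VP16 against vector, and those among neighbours to 0 for Aire. Over all clusters the block lowered the calls against vector from 1131 to 597 for Aire and from 2539 to 1934 for MBD-VP16.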
